A study of Mus musculus with 12 samples.

Results

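Scavenger receptors are the surface proteins with which macrophages bind particles, bacteria and oxidized lipoproteins that no antibody has marked. The genes described here are Marco, Msr1, Cd163l1, Cd163, Scarb1, Olr1 and Cd68, and their members were taken as every probe that the platform annotation assigns to one of these symbols. That gave 10 probes for 6 of the 7 genes, out of 19057 named genes on the array. Cd68, the endosomal glycoprotein macrosialin, matched no probe and was not analysed here. RNA came from alveolar macrophages of C57Bl/6 mice, washed out of the lungs at day 60. The 6 control mice had received 35% surfactant in saline through the oropharynx, and the other 6 mice 100 µg of multiwalled carbon nanotubes (MWCNT) in that same fluid. Each mouse was 1 array (Illumina Mouse WG-6 v2, a bead array), and the labels give a purity above 90% but no sex. The study's question was how long-lived nanotube granulomas alter these phagocytes, in a comparison with human sarcoidosis.

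These receptors differ in structure and in the ligands they bind. Marco and Msr1 are the class A receptors, trimers with a collagen-like stalk. Marco is carried constitutively by resident alveolar macrophages and takes up unopsonized dust and bacteria, while Msr1 binds modified low-density lipoprotein, silica and many microbes. Scarb1 and Olr1 face lipid: Scarb1 is the high-density lipoprotein receptor that passes cholesterol in both directions, and Olr1 (LOX-1) is a lectin-like receptor for oxidized low-density lipoprotein. Cd163 clears haemoglobin bound to haptoglobin. Cd163l1 belongs to the same cysteine-rich family, and in mice it is also called Scart1 and has been described on gamma delta T cells.

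Values are log2 intensities after background correction and quantile normalization, and a probe was detected where its signal exceeded the negative-control beads of its array (detection p under 0.05). All 12 arrays gave comparable data, with 38.0% to 39.3% of 45281 probes detected in controls and 39.1% to 40.5% with MWCNT. The probes of the Y-linked genes Eif2s3y and Kdm5d were detected on MWCNT arrays 5 and 6 and on no other array. A probe for Uty, also Y-linked, was detected in both groups and did not separate the arrays. MWCNT array 5 also stood apart, since its mean correlation was 0.985 both with the other MWCNT arrays and with the controls. Each kept member probe is therefore given with and without these arrays, and list counts where leaving them out moved a count by over 1.5 times. Resident alveolar macrophage markers were present: 11 of the 14 on the array passed the filter, though Siglecf, Fabp1 and Atp6v0d2 were detected on no array. Of the 11, 1 rose and 2 fell, and under a scaling of each array to its kept-probe median none rose and 6 fell. Probes detected on at least 3 arrays were kept (19291), and limma's test with Benjamini-Hochberg adjustment called 2216 of them at an adjusted p under 0.05 (11.5%). Of these 1166 were raised (6.04%) and 1050 lowered (5.44%). The split depended on the scaling, with 2265 raised and 273 lowered under a scaling of each array to its median over all probes, and 1014 and 2216 under a scaling to the median over kept probes. The median log2 difference over kept probes was -0.03, and 0.10 and -0.10 with these 2 scalings.

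Of the 10 member probes 5 passed the filter, those of Marco, Msr1, Cd163l1 and Scarb1 (2 probes). Transcripts for Cd163l1, Msr1 and Marco rose with MWCNT, and 1 Scarb1 probe fell. The other Scarb1 probe was not called. The remaining 5 probes, for Cd163, Olr1 and a part of Msr1, were detected on no array of either group. The Cd163l1 probe passed mainly through its MWCNT arrays, so these counts describe the probes and are no support for a family-wide change.

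**Figure D1:**
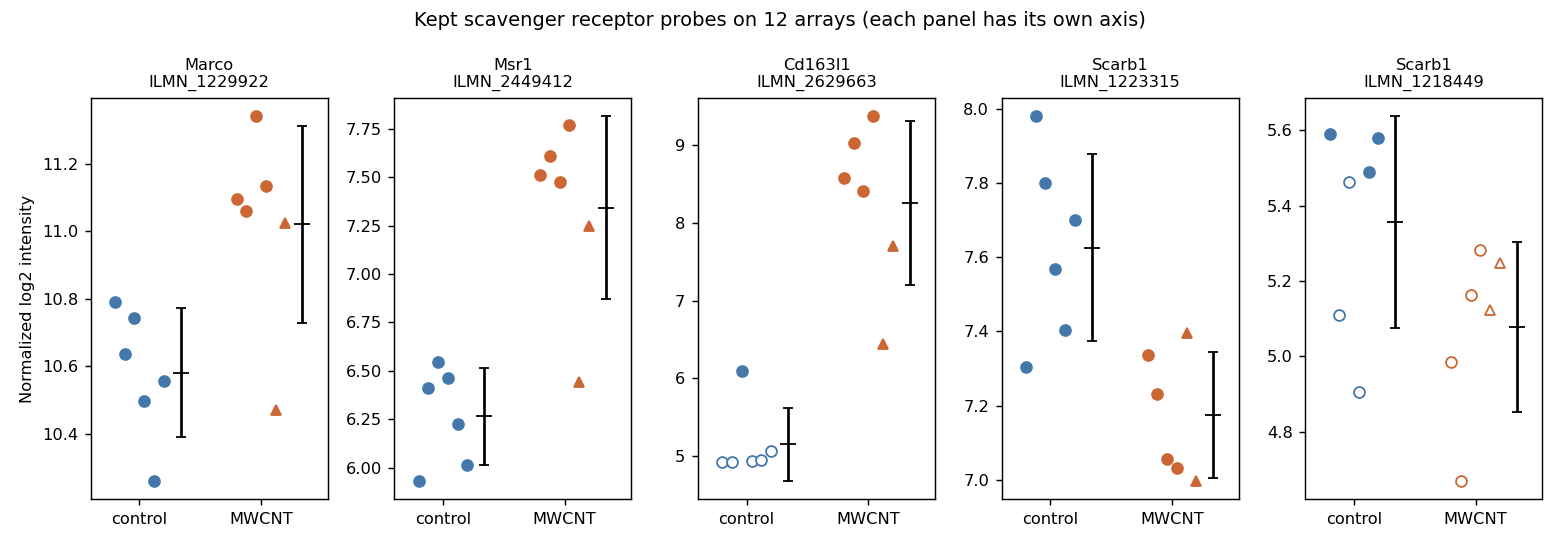
Normalized log2 intensity (y axis, scaled separately in each panel) of the 5 kept probes on 6 control and 6 MWCNT arrays. Points are arrays, open points were not detected, triangles are MWCNT arrays 5 and 6 with Y-linked signal, and bars show mean ± SD. Every MWCNT array lies above every control array for Cd163l1, whereas the groups overlap for the other probes.

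Cd163l1 showed the largest difference of these receptors. Its probe gave a scanner signal of 139.9, 149.35 and 177.9 in controls (lowest, median and highest) and of 206.6, 580.45 and 858.4 with MWCNT. Only control array 3 detected it among controls, and all 6 MWCNT arrays did. On the log2 scale the controls ran from 4.92 through a median of 4.95 to 6.10, and the MWCNT arrays from 6.44 through 8.49 to 9.37. The groups did not overlap, as for 3.72% of all kept probes in this direction (2.65% in the other, which no member showed), and MWCNT array 5 lay nearest to the controls. The mean moved from 5.15 ± 0.47 to 8.25 ± 1.05 (SD, n = 6), a fitted log2 fold change of 3.10 ± 0.41 (SE; adjusted p = 0.000285). The control mean lay below the lowest detected level of every control array, and 5 of 6 control arrays did not detect the probe, so no linear fold is given. The log2 fold change was 1.47 without background correction and 0.96 in the authors' processed values. With a normal-exponential correction that, unlike the main one, did not use the negative controls, it was 2.06. The call held in each.

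Cd163l1 varied widely among the exposed mice. MWCNT array 4 was the highest and array 5 the lowest, and array 6, at 7.70, was the next lowest. The 2 arrays with Y-linked signal averaged 7.07, against 8.84 ± 0.43 for the other 4 (SD, n = 4). Without those 2 arrays the log2 fold change was 3.69 ± 0.25 (adjusted p = 2.01e-06), and without array 5 alone it was 3.46 ± 0.28 (adjusted p = 3.81e-06).

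Msr1, the macrophage scavenger receptor of class A, rose on the probe ILMN_2449412. Scanner signals were 175.3, 191.95 and 206.9 in controls and 206.6, 364.75 and 409.1 with MWCNT. All 12 arrays detected the probe. Log2 intensities ran from 5.93 through 6.32 to 6.55 in controls and from 6.44 through 7.49 to 7.77 in exposed mice. MWCNT array 5 lay inside the control range and the other 5 MWCNT arrays lay above all controls. The mean was 6.26 ± 0.25 and 7.34 ± 0.47 (SD, n = 6), a log2 fold change of 1.08 ± 0.19 or 2.11-fold (adjusted p = 0.00285). Without the 2 arrays with Y-linked signal it was 1.33 ± 0.13 (adjusted p = 3.55e-05), and without array 5 alone 1.26 ± 0.13 (adjusted p = 2.39e-05). In the authors' processed values the difference was 0.31 ± 0.06 on the log2 scale (adjusted p = 0.00708), and without background correction 0.50.

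The second Msr1 probe, ILMN_2619240, was annotated to the RefSeq transcript NM_031195 and was detected on none of the 12 arrays. Its signal was 120.3 to 131.0 in controls and 135.3 to 171.4 with MWCNT, under the median signal of its own array throughout. The responding probe was annotated to a different sequence record, M59445. Both probes carry the same gene symbol, and which transcript forms they match could not be checked without probe sequences.

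Marco rose by a smaller step. Its scanner signal was 1095.1, 1500.4 and 2198.7 in controls and 1344.4, 2719.7 and 2918.7 with MWCNT, and every array detected it. Log2 intensities ran from 10.26 through 10.60 to 10.79 in controls and from 10.47 through 11.08 to 11.34 with MWCNT. MWCNT arrays 1, 2, 3, 4 and 6 exceeded all controls, while array 5 fell among the lower controls. The mean was 10.58 ± 0.19 and 11.02 ± 0.29 (SD, n = 6), a log2 fold change of 0.44 ± 0.13 or 1.36-fold (adjusted p = 0.0484). This call lay at the threshold: leaving out control array 2, 3, 4, 5 or 6, or MWCNT array 1, 2, 3, 4 or 6, ended it, with an adjusted p between 0.0572 and 0.0997. Without MWCNT array 5 the fold change was 0.55 ± 0.10 (adjusted p = 0.00341), and without both arrays with Y-linked signal 0.58 ± 0.11 (adjusted p = 0.00529). The direction was positive in all 27 alternative fits.

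Scarb1 went the other way. On the brighter probe, ILMN_1223315, scanner signals were 248.8, 293.3 and 368.3 in controls and 266.1, 291.25 and 359.5 with MWCNT. These scanner signals overlap almost wholly, and the difference appears once the arrays are normalized to one another. Log2 intensities ran from 7.30 through 7.63 to 7.98 in controls and from 6.998 through 7.14 to 7.40 with MWCNT. MWCNT array 5, the highest of its group, lay above the lowest control, array 1. The mean fell from 7.63 ± 0.25 to 7.18 ± 0.17 (SD, n = 6), a log2 fold change of -0.45 ± 0.12 (adjusted p = 0.0262). Leaving out control array 3 or 6, or MWCNT array 3, 4 or 6, ended the call, with an adjusted p between 0.0534 and 0.0582. Scaling to all probes ended it as well, with a difference of -0.21 ± 0.13 (adjusted p = 0.331), and in the authors' values the difference was -0.17 ± 0.05. Without MWCNT array 5 it was -0.49 ± 0.12 (adjusted p = 0.0197), and without both arrays with Y-linked signal -0.46 ± 0.13 (adjusted p = 0.0463).

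The dimmer Scarb1 probe, ILMN_1218449, was detected on 3 control arrays and no MWCNT array. Its log2 intensity was 4.91, 5.48 and 5.59 in controls and 4.67, 5.14 and 5.28 with MWCNT, so the groups overlapped. The difference of -0.28 ± 0.14 was not called (adjusted p = 0.217), nor was it without MWCNT array 5 (-0.29 ± 0.15, adjusted p = 0.254) or without both arrays with Y-linked signal (-0.33 ± 0.16, adjusted p = 0.235). Deviations of the 2 Scarb1 probes from the group means had a Pearson correlation of -0.42 over 12 arrays. Since the dimmer probe was mostly not detected, this value cannot show whether the 2 probes follow each other.

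**Figure D2:**
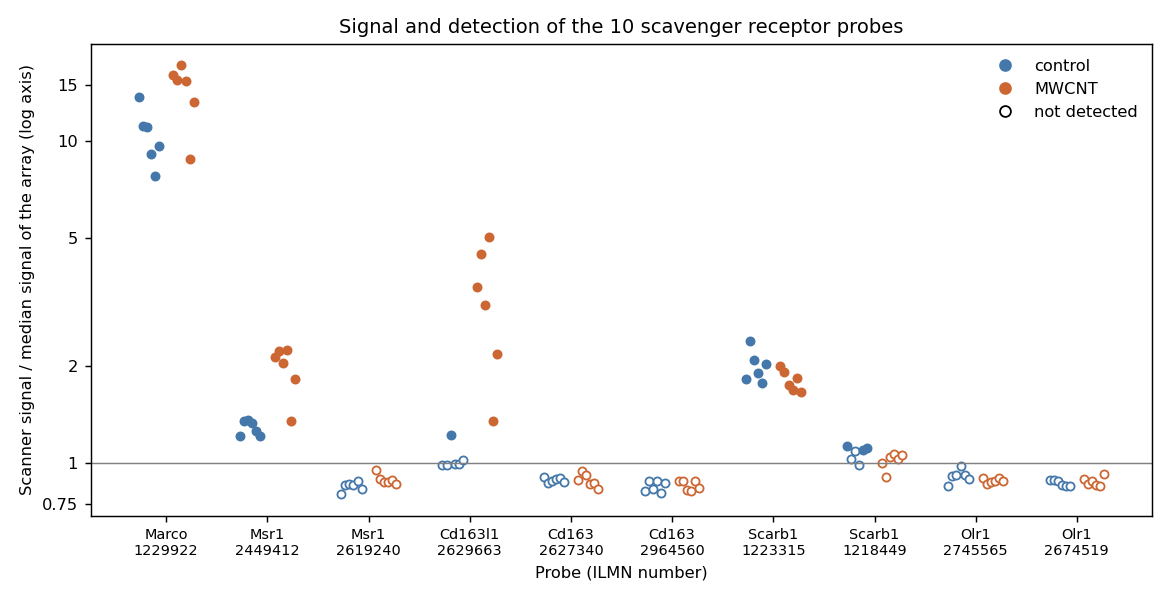
Scanner signal of the 10 member probes divided by the median signal of the same array (log y axis), for 6 control and 6 MWCNT arrays. Open points were not detected against negative-control beads: both Cd163 probes, both Olr1 probes and Msr1 ILMN_2619240 are open on all 12 arrays, below the line at 1.

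Cd163 and Olr1 were not well above background in either group. The 2 Cd163 probes gave signals of 113.3 to 144.9 in controls and 132.2 to 173.4 with MWCNT, with detection p never under 0.318. The 2 Olr1 probes gave 119.6 to 142.6 and 129.7 to 161.4, with detection p never under 0.225. The medians of whole arrays were also higher with MWCNT, at 152.5 to 183.4 against 140.4 to 160 in controls. Relative to those medians neither gene stood out in any mouse, so the array gives no fold for the haemoglobin receptor or for LOX-1.

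**Figure D3:**
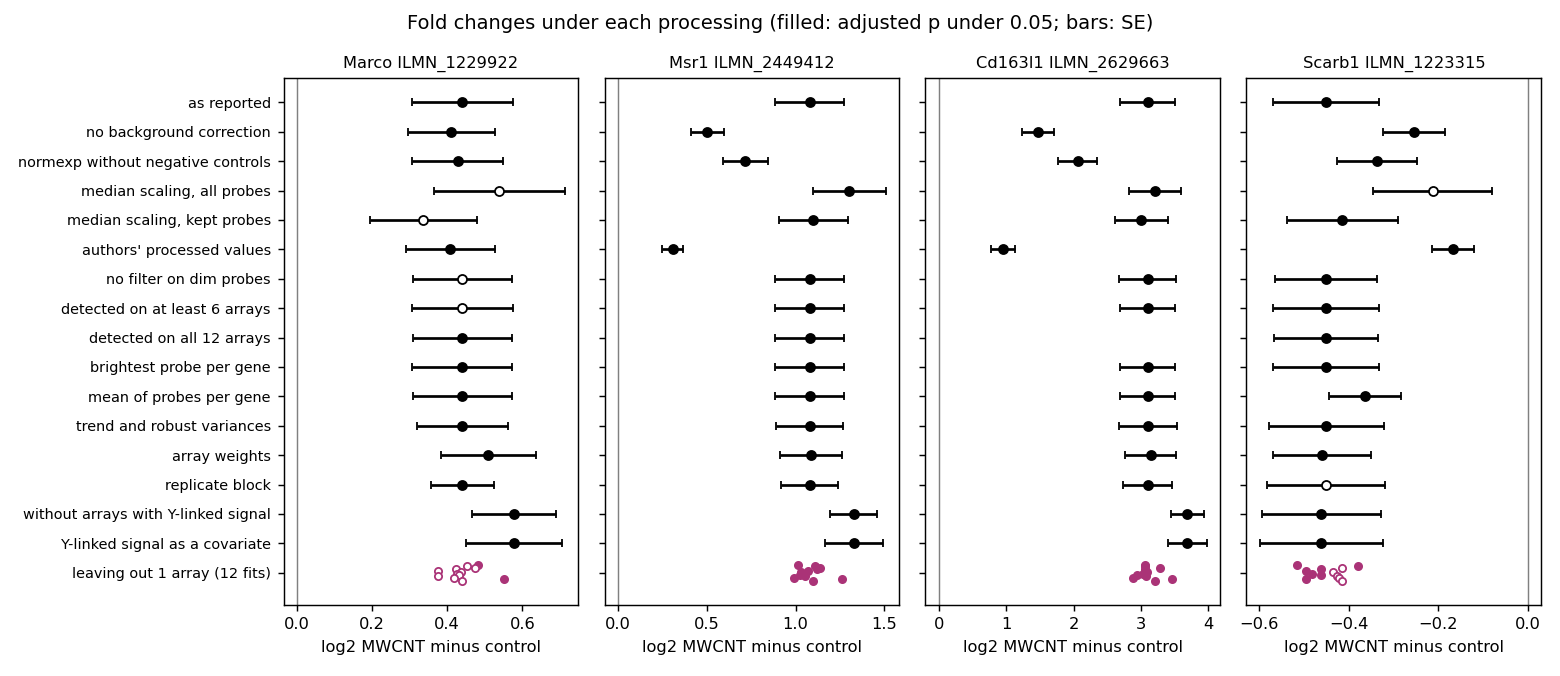
Log2 fold change (x axis, MWCNT minus control, SE bars) of the 4 called probes as reported and under each alternative processing (rows), with 12 points in the bottom row for leaving out 1 array each. Filled points have an adjusted p under 0.05: all are filled for Msr1 and Cd163l1, while Marco and Scarb1 lose the call in several fits and keep their sign in all.

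Proximal promoters of 4 of these genes are shown to set the receptors that rose beside those never detected. They are RefSeq sequences of build GRCm38.p6 around a transcript start, written on the gene's strand. The windows of Marco, Cd163 and Olr1 span the outer end of the gene, whereas that of Cd163l1 lies inside the annotated gene, at an internal start. The table used held 5 of the 7 genes, and Msr1 and Scarb1 are named only. Capitals mark matches on either strand to the PU.1 core GAGGAA or the AP-1 site TGANTCA, which do not overlap here.
Marco (chr1:120504975-120505274, minus strand): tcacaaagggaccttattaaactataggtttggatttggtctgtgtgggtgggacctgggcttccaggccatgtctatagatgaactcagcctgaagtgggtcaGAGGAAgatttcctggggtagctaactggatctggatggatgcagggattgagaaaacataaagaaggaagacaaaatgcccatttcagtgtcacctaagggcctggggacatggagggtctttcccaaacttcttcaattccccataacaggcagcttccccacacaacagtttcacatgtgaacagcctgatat
Cd163l1 (chr7:140218017-140218316, plus strand): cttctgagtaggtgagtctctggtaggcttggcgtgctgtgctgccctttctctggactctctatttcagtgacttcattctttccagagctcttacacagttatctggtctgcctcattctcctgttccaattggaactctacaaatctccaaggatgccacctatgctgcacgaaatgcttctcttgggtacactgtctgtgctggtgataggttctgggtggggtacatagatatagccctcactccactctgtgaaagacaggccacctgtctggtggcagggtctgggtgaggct
Cd163 (chr6:124304401-124304700, plus strand): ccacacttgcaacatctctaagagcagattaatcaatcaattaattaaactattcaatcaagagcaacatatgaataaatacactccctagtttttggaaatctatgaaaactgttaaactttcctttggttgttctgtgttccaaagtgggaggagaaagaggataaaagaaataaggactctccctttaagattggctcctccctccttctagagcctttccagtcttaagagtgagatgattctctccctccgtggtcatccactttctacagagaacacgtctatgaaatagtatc
Olr1 (chr6:129507116-129507415, minus strand): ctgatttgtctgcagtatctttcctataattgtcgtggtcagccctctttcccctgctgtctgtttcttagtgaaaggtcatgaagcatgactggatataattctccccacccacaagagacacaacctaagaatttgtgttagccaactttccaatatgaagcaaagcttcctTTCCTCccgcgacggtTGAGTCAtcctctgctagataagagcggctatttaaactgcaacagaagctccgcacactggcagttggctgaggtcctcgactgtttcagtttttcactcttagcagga
The Marco window held 1 PU.1 core, and those of Cd163l1 and Cd163 held no match to either motif. The Olr1 window held 1 PU.1 core and 1 AP-1 site, though no Olr1 probe was detected. Of 32851 RefSeq promoter windows of this length, 28.3% hold the PU.1 core and 7.81% the AP-1 site. The antioxidant response element TGACNNNGC, the CACGTG box and the C/EBP motif TTGCNNAA were also searched and matched none of these 4 windows (12.4%, 7.15% and 10.8% of all windows). A match is only a description of the letters.

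Deviations of the 3 raised receptors were also positively correlated among mice of the same group. Over the 12 arrays, which share their normalization, deviations of Cd163l1 from the group means correlated with those of Msr1 at 0.89 and of Marco at 0.70, and Msr1 with Marco at 0.64. MWCNT array 5, the lowest for all 3, contributes to each of these values. Only 1 control array detected Cd163l1, so its deviations among controls are mostly background. Over other named genes the 99th percentile of such correlations was 0.81 for Cd163l1, 0.78 for Msr1 and 0.80 for Marco. Only the pair of Cd163l1 and Msr1 lay above these. Scarb1 did not share this pattern, with correlations of -0.10 with Cd163l1, -0.03 with Msr1 and -0.20 with Marco. The genes most like Cd163l1 by this measure were Mrgpre, a Mas-related receptor (0.94), the adhesion molecule Vcam1 (0.94) and the ubiquitin ligase Rnf126 (0.92). For Msr1 they were Mrgpre (0.95), Fam78a (0.95) and the matrix protein Ecm1 (0.95). For Marco they were the cysteine dioxygenase Cdo1 (0.95), the chemokine Ccl22 (0.94) and the aquaglyceroporin Aqp9 (0.94). For Scarb1 they were the xylosyltransferase Xxylt1 (0.91), the vesicle coat subunit Sec23a (0.91) and Macrod2 (0.88). Genes that were alike between mice did not all respond alike. Ccl22 and Aqp9 rose by 0.63 and 0.98 (adjusted p = 0.00556 and 9.45e-05), but Cdo1 differed by 0.14 (adjusted p = 0.74) and Mrgpre by 0.02 (adjusted p = 0.93).

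Markers of several cell types other than resident macrophages also rose with MWCNT. Of 10 gamma delta T cell markers on the array 4 were kept, and 3 of these rose, against 7.14% of all named genes. Markers detected in no control mouse passed the filter only through their MWCNT arrays, so the filter partly fixes such counts and no support is drawn from them: this holds for 2 of the 3 raised here. The segment Trgv4 was at least 3.72-fold higher (adjusted p = 0.000315), the kinase Blk, which is also on the B cell list, at least 3.27-fold higher (adjusted p = 0.00511), and the chemokine receptor Ccr6 rose by 1.18 ± 0.36 (adjusted p = 0.0494). Such a value is a bound, used where no control array detected the probe. Il1r1 differed by -0.17 ± 0.15 (adjusted p = 0.509), and Il17a, Il17f, Il23r and 5830411N06Rik were detected on no array. The summed log2 level of the 4 kept markers was 20.5 to 22.6 in controls and 22.4 to 30.1 with MWCNT. Their mean difference from controls was lowest on MWCNT arrays 5 and 6 (0.22 and 0.99) and 1.23 to 2.14 on the other 4. The B and plasma cell list (0.23 and 1.30, the other arrays 1.86 to 3.24) and the neutrophil list (0.50 and 0.80, the other arrays 1.06 to 1.30) were also lowest on arrays 5 and 6, the arrays with the least Cd163l1. So was the epithelial list (-0.18 and -0.08). Not every list followed this order. Array 6 lay above array 3 for the T and NK (1.61 and 1.09), recruited macrophage (0.99 and 0.91), dendritic cell (0.70 and 0.67) and endothelial and fibroblast lists (0.53 and 0.44). Deviations of Cd163l1 over the 12 arrays correlated at 0.81 with the gamma delta list, 0.81 with neutrophil, 0.76 with B and plasma cell, 0.65 with recruited macrophage and 0.62 with T and NK cell markers. Only 1 control array detected Cd163l1, and B and plasma cell scores of controls ran only from -0.05 to 0.04. The control arrays therefore add little to such values, which depend largely on the MWCNT arrays. For Msr1 these values were 0.72, 0.79, 0.75, 0.61 and 0.60, and for Marco 0.63, 0.59, 0.59, 0.46 and 0.50. Several other lists also gave positive values, some of them clearly lower. For Cd163l1, Msr1 and Marco in turn, epithelial markers gave 0.67, 0.66 and 0.33. Endothelial and fibroblast markers gave 0.58, 0.43 and 0.64, and dendritic cell markers 0.36, 0.34 and 0.52. Red blood cell markers gave 0.36, 0.50 and 0.20, whereas resident alveolar macrophage markers gave -0.48, -0.36 and -0.14. The positive values came from several cell types and do not single out 1 of them. Which cells carried the receptor RNA was not tested.

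Other cell markers moved as well. Of 18 T and NK cell markers on the array 14 were kept and 10 rose, 4 of them undetected in controls. The interleukin-7 receptor Il7r rose by 2.38 ± 0.21 (adjusted p = 3.79e-05), while Cd4, Cd8a, Cd5 and Ncr1 were detected on no array. The summed level of these 14 was 89.0 to 93.0 in controls and 98.9 to 118 with MWCNT. Of 13 kept markers of recruited monocytes and macrophages 10 rose, 3 of them undetected in controls, with summed levels of 107 to 110 and 116 to 127, and only Itgam of the 14 on the array was detected nowhere. Kept-probe scaling gave 9 raised and 2 lowered. C1qb, a complement subunit, rose by 1.91 ± 0.19 (adjusted p = 5.23e-05) and Gpnmb by 0.94 ± 0.08 (adjusted p = 3.45e-05). Of 7 kept neutrophil markers 4 rose, 2 of them undetected in controls, with summed levels of 49.4 to 51.8 and 54.2 to 59.9, while Mpo, Elane, Ngp, Camp and Mmp8 were detected on no array. Of 6 kept B and plasma cell markers 4 rose, all 4 undetected in controls, with summed levels of 33.1 to 33.6 and 34.7 to 52.8, and Pax5 and Jchain were detected nowhere. Of 10 kept dendritic cell markers 5 rose, 1 of them undetected in controls, from 78.0 to 80.5 up to 81.5 to 88.2, and Xcr1 and Flt3 were detected nowhere. The part of these cells in the receptor differences was not tested, and in bulk RNA more cells of a type and more RNA per cell cannot be told apart.

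**Figure D4:**
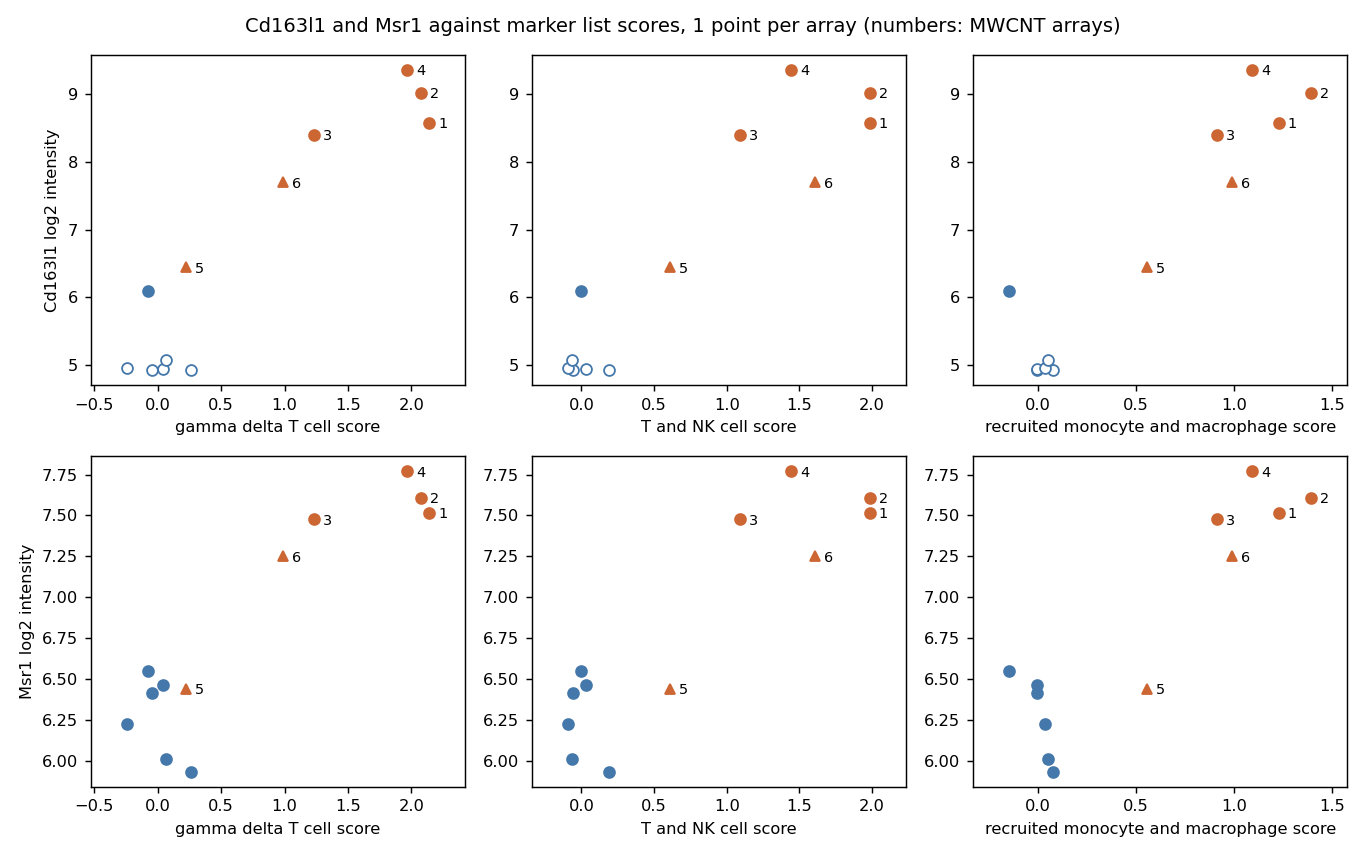
Log2 intensity of Cd163l1 (top) and Msr1 (bottom) against the mean log2 difference from controls of 3 marker lists (x axes), 1 point per array, controls blue and MWCNT orange with array numbers. Triangles are MWCNT arrays 5 and 6, open points were not detected, and MWCNT array 5 is the lowest exposed array in every panel.

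Other scavenger receptor genes changed unevenly. Of 23 further genes of these families on the array 12 were kept, 3 rose, none fell and 9 were not called, with a median log2 difference of 0.20 beside -0.02 for all named genes. Over all named genes 7.14% rose and 4.78% fell. Cxcl16, a membrane chemokine that also binds oxidized lipoprotein, rose by 1.19 ± 0.13 (adjusted p = 8.91e-05). Cd6, a T cell member of the cysteine-rich family that is also among the T cell markers above, was not detected in controls and was higher by at least 2.80-fold (adjusted p = 0.000321). Lgals3bp, a secreted protein with a scavenger receptor domain, rose by 0.40 ± 0.10 (adjusted p = 0.0179). The mannose receptor Mrc1, the brightest that did not pass, differed by -0.14 ± 0.07 (adjusted p = 0.213). The lipid receptor Cd36 was detected on no array, and neither was 5830411N06Rik. Kept-probe scaling gave 3 raised and 2 lowered of the 12, and all-probe scaling 5 raised and none lowered. Without MWCNT array 1 the test called 5 raised.

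**Figure D5:**
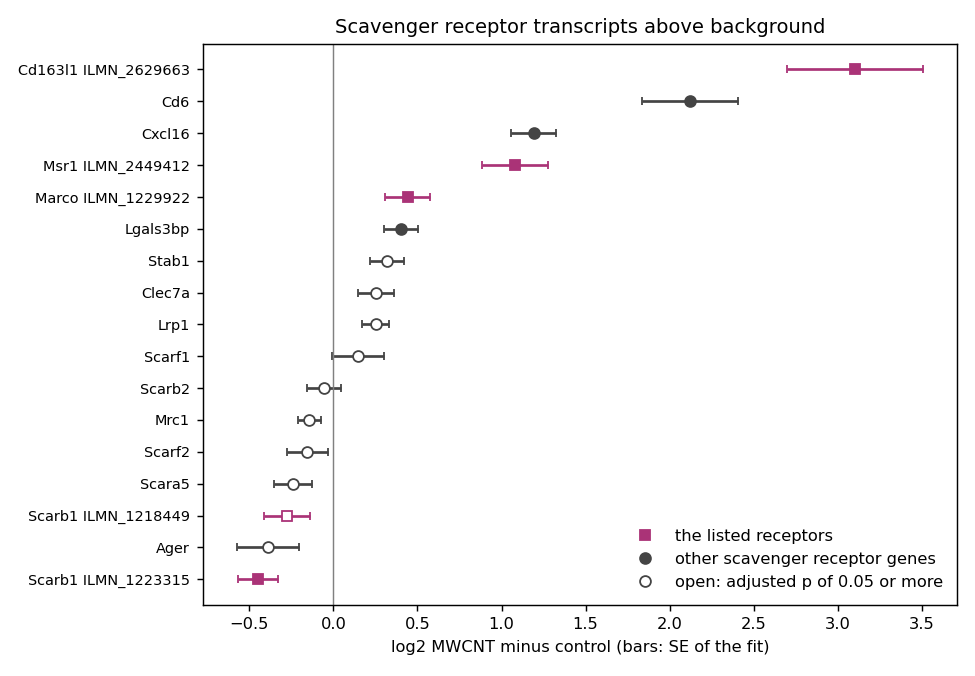
Log2 fold change (x axis, MWCNT minus control, SE bars) of the 5 kept probes of the listed receptors (squares) and of 12 other scavenger receptor genes above background (circles). Filled symbols have an adjusted p under 0.05, and Cd163l1 at 3.10 and Scarb1 at -0.45 lie at the ends.

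Genes that handle the lipid these receptors bring in also moved in both directions. Of 13 kept genes for lipoprotein and cholesterol handling 3 rose and 1 fell, with a median of 0.15. Fabp5, a fatty acid carrier, rose by 0.92 ± 0.12 (adjusted p = 0.000222). Apoe, which is also on the recruited macrophage list, rose by 0.63 ± 0.12 (adjusted p = 0.00411) and the lysosomal cholesterol carrier Npc2 by 0.44 ± 0.08 (adjusted p = 0.00271). The lipid droplet gene Cidec fell by 0.58 ± 0.08 (adjusted p = 0.000315). Lipoprotein lipase, Lpl, differed by -0.02 ± 0.06 (adjusted p = 0.905). Kept-probe scaling gave 3 raised and 4 lowered, and in the authors' values 5 rose and 2 fell.

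Of 20 kept genes for uptake of apoptotic cells and particles 3 rose, none fell and 17 were not called (median 0.05). Mfge8, a bridge between dying cells and integrins, rose by 2.57 ± 0.24 (adjusted p = 3.83e-05). Gas6, the ligand of Axl and Mertk, rose by 1.42 ± 0.25 (adjusted p = 0.00234; 1 control array detected it), and the phosphatidylserine receptor Timd4 by 0.66 ± 0.13 (adjusted p = 0.00538). The receptor Axl differed by 0.03 ± 0.07 (adjusted p = 0.852). Kept-probe scaling gave 3 raised and 3 lowered of the 20, and 1 fell without control array 1.

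Of 13 kept genes around haemoglobin and Cd163 the test called none, although 3 rose under all-probe scaling 1 fell under kept-probe scaling, and 1 rose without control array 5, MWCNT array 1 or MWCNT array 5, or without both arrays with Y-linked signal. The ferritin chain Fth1 differed by -0.02 ± 0.06 (adjusted p = 0.897). Of 10 Toll-like receptor partners 2 fell and none rose: Tlr2 fell by 0.26 ± 0.06 (adjusted p = 0.0174) and the adaptor Ticam1 by 0.37 ± 0.11 (adjusted p = 0.0372). All-probe scaling ended both calls, and kept-probe scaling gave 4 lowered. The count was 1 without the arrays with Y-linked signal, and it was also 1 when a single array was left out (any of control arrays 1, 2, 4 and 5 and MWCNT arrays 1, 3, 4, 5 and 6). The adaptor Myd88 differed by -0.07 ± 0.09 (adjusted p = 0.688).

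Of 16 kept genes on the list chosen as regulators of scavenger receptor expression 2 rose and 1 fell. Without the arrays with Y-linked signal 1 rose and none fell, all-probe scaling gave 3 and none, and kept-probe scaling 2 and 3. The count of rises was 1 without control array 2, 3, 4, 5 or 6 or MWCNT array 3, 5 or 6. Csf1, the macrophage growth factor, which no control array detected, was higher with MWCNT by at least 2.40-fold (adjusted p = 6.59e-05). A rise of 0.34 ± 0.10 was measured for the transcription factor Tfec (adjusted p = 0.0453). The cytokine gene Tgfb1 fell by 0.35 ± 0.08 (adjusted p = 0.0167). The granulocyte-macrophage colony-stimulating factor receptor chain Csf2ra differed by 0.02 ± 0.09 (adjusted p = 0.919). Of 8 kept genes for lysosome-associated membrane proteins, a list not confined to the family of Cd68, only the tetraspanin Cd63 rose (1.25 ± 0.12, adjusted p = 5.2e-05). The sialomucin Cd164 differed by -0.05 ± 0.07 (adjusted p = 0.713), and under kept-probe scaling 1 of the 8 fell.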

How the data were processed

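The deposited scanner table holds, for 45281 probes on 12 arrays, an intensity and a detection p-value, both named so per the file headers and not normalized between arrays. A second table of intensity values, processed by the authors, was used as an alternative. The submitters' processing notes name lumi, with no version. Symbols came from the platform annotation, updated through gene identifiers. In R 4.3.3 with limma 3.58.1, neqc corrected background (offset 16) and quantile-normalized log2 values. Probes with a detection p under 0.05 on at least 3 arrays were kept. MWCNT and control were compared with lmFit and eBayes, without covariates, two-sided, adjusted over 19291 probes. Genes in lists were read from their brightest kept probe. A bound sets the brighter mean against the higher of the lowest detected signal and the probe's own.

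From each of 17 lists (219 of 251 genes matched) the genes eligible to be named are up to 4 called ones, lowest adjusted p first, plus the brightest uncalled one, and for each member the 3 most alike by correlation within groups. Epithelial markers gave 2 raised of 9 kept, endothelial and fibroblast markers 2 of 4, and red blood cell markers none of 2. Members and lists were chosen with earlier results of these data known. Tested on simulated data for this comparison with 19291 probes, limma called 51% of log2 changes of 0.5 and 93% of changes of 1. The labels give a separate animal per array, and the number of arrays limits the precision. Alternatives are given in the closing section. Figures were drawn with matplotlib 3.10.9 in Python 3.11.15.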

Additional observations from a re-analysis of the deposited data

Results flagged for a closer look

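Among 10 groups of 6 arrays (5 kept probes in 2 groups), the Dixon gap test marked 2 arrays; chance marks about 1 in 20 groups. Cd163l1 on control array 3 read 6.10, above the next control at 5.07, and this was the only control array that detected the probe. Without that array the Cd163l1 log2 fold change was 3.29 ± 0.41 (adjusted p = 0.000353). Marco on MWCNT array 5 read 10.47, below the next MWCNT array at 11.02. That array was also the lowest MWCNT array for Cd163l1 and Msr1 and the one closest to the controls over all kept probes.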

How the results depend on the processing

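Each kept member probe was refitted under up to 27 alternatives, and none changed sign. The calls for Msr1 (27 of 27) and Cd163l1 (26 of 26, the filter for all 12 arrays removing it) held, with log2 fold changes of 0.31 to 1.33 and 0.96 to 3.69. Marco was called in 13 of 27 fits (adjusted p from 0.00341 to 0.117) and lost with scaling to all probes (0.0530), scaling to kept probes (0.117), no filter (0.0790) and detection on at least 6 arrays (0.0503). Scarb1 ILMN_1223315 was called in 20 of 27, and its dimmer probe in none of 23. The number of member probes called was 4, became 2 with scaling to all probes, and ran from 2 to 4 when 1 array was left out. The total of called probes was 2216, and ran from 1754 to 2196 when 1 array was left out. It became 1457 (664 raised, 793 lowered) when only the 15025 probes detected on all 12 arrays were tested. The causes of these differences were not tested. Replicate numbers were not taken as pairing the arrays, since not every pair deviated together: deviations of same-numbered arrays correlated above 0.1 in 4 of 6 pairs, and 3 control and 2 MWCNT arrays were closest to their own number. With the replicate block 1937 probes and 3 member probes were called, Scarb1 at an adjusted p of 0.0660. Of the list counts, 828 stayed within 1.5 times and 90 did not. The chip could not be used as a block because the headers name none. Dim signal limits Cd163, Olr1, ILMN_2619240, the dimmer Scarb1 probe and the control levels of Cd163l1 and of Msr1 ILMN_2449412.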
